A study of Mus musculus with 4 samples.

Results

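Endothelial cells, which line blood vessels, were examined in single-cell RNA sequencing (scRNA-seq) data of XY mouse gonads on embryonic days E10.5, E11.5, and E12.5. A cell was taken as endothelial when at least 4 of 7 genes, Pecam1, Cdh5, Kdr, Flt1, Egfl7, Emcn, and Esam, each had 1 or more unique molecular identifier (UMI), which marks 1 captured transcript molecule. The members were thus chosen by their measured UMIs of these 7 genes. This gave 138 endothelial cells of 8702 retained cells in vivo. There were 56 of 3837 cells at E10.5, 49 of 2101 at E11.5, and 33 of 2764 at E12.5. Cells with 0 or 1 of the 7 markers in the same library, 3724, 1861, and 2552 in number, served as comparison cells. The 427 cells with 2 or 3 markers were placed in neither group.

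The study followed the formation of testicular somatic cells from XY embryonic stem cells (ESCs) and used embryonic gonads as its in vivo reference. The gonads came from the ICR mouse strain and were processed with version 2 of a 3′ counting kit, with 1 library for each stage. Dissection differed as well, with nearby dorsal mesenchyme kept in the E10.5 sample and the gonad used without its mesonephros at E11.5 and E12.5. Stage and dissection therefore cannot be told apart. One further library, of enriched ESC-derived cells at D6, lies outside the rule and is described after the report. With a single library per stage, no test between stages was possible. Endothelial and comparison cells of a library were compared without a test, since the cells were chosen by their own transcripts. All intervals are exact at 95% and cover counting error only. The number of embryos pooled into each library was not given in the sources used here.

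Endothelial cells arise from mesodermal precursors under the control of transcription factors of the ETS, GATA, and SCL families and depend on vascular endothelial growth factor (VEGF) signaling through the receptor Kdr. Notch signaling and the SOXF factor Sox17 mark arterial cells, whereas Nr2f2 marks venous cells. In the fetal testis, vessels that grow in from the mesonephros form the coelomic vessel and divide the tissue into cords.

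The sequences shown here are those that precede the transcription start of 3 genes that led the endothelial profile, Cldn5, Cd34, and Gimap4, and of Etv2, the ETS factor gene around which the E11.5 cells differed. They cover 250 bases each, are taken from RefSeq on GRCm38.p6, and are written 5′ to 3′ on the strand of the gene. Capitals mark AGGAAG, a hexamer that holds the core bound by ETS factors, on either strand. Cldn5 lies on the plus strand and its window is chr16:18776597-18776846. The Cd34 window on the plus strand is chr1:194938571-194938820, the Gimap4 window on the plus strand is chr6:48684328-48684577, and the Etv2 window on the minus strand is chr7:30635853-30636102.
Cldn5: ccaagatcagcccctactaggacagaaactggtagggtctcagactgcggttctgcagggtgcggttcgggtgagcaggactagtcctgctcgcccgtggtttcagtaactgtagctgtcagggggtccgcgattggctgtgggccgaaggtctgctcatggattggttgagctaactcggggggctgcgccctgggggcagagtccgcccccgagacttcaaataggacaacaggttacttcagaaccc
Cd34: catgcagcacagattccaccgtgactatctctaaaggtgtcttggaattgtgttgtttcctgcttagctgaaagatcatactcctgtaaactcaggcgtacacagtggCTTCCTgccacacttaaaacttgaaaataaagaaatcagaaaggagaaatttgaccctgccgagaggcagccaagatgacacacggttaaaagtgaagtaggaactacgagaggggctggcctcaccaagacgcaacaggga
Gimap4: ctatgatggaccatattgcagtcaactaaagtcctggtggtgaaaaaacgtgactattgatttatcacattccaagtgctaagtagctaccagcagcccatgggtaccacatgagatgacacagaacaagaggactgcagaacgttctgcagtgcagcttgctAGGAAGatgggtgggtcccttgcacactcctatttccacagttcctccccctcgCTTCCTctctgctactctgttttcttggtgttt
Etv2: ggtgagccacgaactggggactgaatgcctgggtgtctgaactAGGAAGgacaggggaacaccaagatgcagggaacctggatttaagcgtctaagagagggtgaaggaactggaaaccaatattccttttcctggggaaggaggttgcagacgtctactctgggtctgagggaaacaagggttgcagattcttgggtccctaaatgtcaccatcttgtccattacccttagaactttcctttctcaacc
The hexamer was present 1 time before Cd34 and Etv2 and 2 times before Gimap4, and its letters were not in the Cldn5 window. It was found in 29.5% of the 32851 windows of the same length, so a match is common. Of the 15 genes that led the endothelial profile, 8 had a window, some of them 2, and 5 of these 10 windows held the hexamer. The pentamer ACAAT, which resembles the site of SOX factors, was in 3 of the 10 windows and in 27.7% of all windows. These letters describe the sequences and do not show a bound site.

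The members were few in every library, at 1.46% of retained cells at E10.5 (95% interval, 1.10 to 1.89), 2.33% at E11.5 (1.73 to 3.07), and 1.19% at E12.5 (0.823 to 1.67). The intervals of E11.5 and E12.5 do not overlap, whereas that of E10.5 overlaps both. The upper limit of 4000 genes per cell at E10.5, against 5000 at the other stages, bears on the E10.5 share. With 1 filter for all libraries, of 1000 to 5000 genes and less than 10% mitochondrial UMIs, 83 cells were found at E10.5. Their share was 2.01%. The E11.5 share was then 2.62% and the E12.5 share 1.19%, so the order of the stages stayed the same. Without members carrying 2 or more markers of another class, the shares were 1.28%, 1.38%, and 0.904%, and that of E11.5 was then near that of E10.5. At E11.5 all 20 cells removed carried globin UMIs. Members were sequenced more deeply than comparison cells, with a median of 10466 against 8137 UMIs at E10.5, 17817 against 11484 at E11.5, and 14273 against 10693 at E12.5. The median share of mitochondrial UMIs in members was 2.57%, 2.88%, and 3.16% from the earliest to the latest stage. No barcode was shared between members of different libraries, although 7 to 15 barcodes were shared between the retained cells of each pair of in vivo libraries.

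Most cells held either few or nearly all of the markers, more clearly at E12.5 than at E11.5. At E12.5, 23 of 33 members had all 7 markers and only 3 had exactly 4. At E10.5, 22 of 56 members had all 7, and at E11.5 18 of 49. Just outside the limit, with 3 markers, were 10, 24, and 9 cells at the 3 stages, and just inside it, with 4, were 10, 10, and 3 cells. The Cldn5 level in cells with 3 markers was 474 CPM (UMIs of the gene per total UMIs of the group, scaled by a constant) at E10.5, 25.8 CPM at E11.5, and 66.1 CPM at E12.5, against 498, 216, and 371 CPM in cells with 4 markers. At E10.5 these levels came from 4 of 10 cells with 3 markers and 6 of 10 cells with 4 markers, and the other cells had no Cldn5 UMI.

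**Figure D1:**
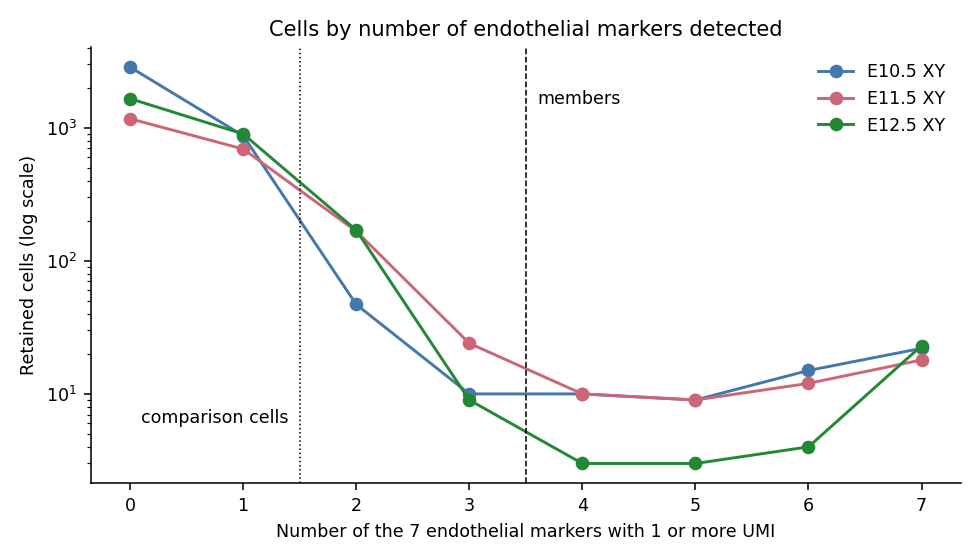
Number of retained cells (vertical axis, log scale) by how many of the 7 endothelial markers had 1 or more UMI (horizontal axis), for the 3 in vivo libraries. Each line is lowest at 4 or 5 markers and is higher again beyond them, up, to 22, 18, and 23 cells with all 7 at E10.5, E11.5, and E12.5.

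The levels of the 7 markers chose the members and are given as description. Egfl7, which encodes a secreted endothelial factor, was found in every member, at 600 CPM at E10.5, 678 CPM at E11.5, and 514 CPM at E12.5. Kdr, the main VEGF receptor, stood at 211, 268, and 291 CPM, and Flt1, a receptor that also binds VEGF, at 137, 172, and 194 CPM. Pecam1, an adhesion molecule of endothelial junctions, stood at 268 CPM at E10.5, 139 CPM at E11.5, and 245 CPM at E12.5, in 47, 23, and 25 cells. It was therefore found in 46.9% of members at E11.5, against 83.9% at E10.5 and 75.8% at E12.5. Cdh5, the cadherin of endothelial junctions, was likewise lowest at E11.5, with 255, 165, and 322 CPM.

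Genes that the rule did not name were also much higher in the members than in comparison cells, although this follows in part from choosing cells by their transcripts and is no test of the label. Ratios were computed as log2((CPM + 10)/(CPM + 10)) from summed UMIs, for genes whose mean CPM over the compared pair of groups was at least 20, and a gene was called at a log2 ratio of 2 or more, or -2 or less. Of the genes compared, 168 of 5525 were higher at E10.5 (3.04%), 132 of 5511 at E11.5 (2.40%), and 177 of 5629 at E12.5 (3.14%), with the 7 markers left out. Lower genes numbered 104 (1.88%), 120 (2.18%), and 120 (2.13%). In total, 86 genes were higher in all 3 libraries and 11 were lower in all 3.

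Cldn5, which encodes the tight junction protein claudin 5, had the largest smallest ratio over the 3 libraries, 5.18 on the log2 scale at E11.5. Its level in endothelial cells was 907 CPM at E10.5 (830 to 989), 384 CPM at E11.5 (343 to 429), and 564 CPM at E12.5 (501 to 633), with 2.23, 0.864, and 3.09 CPM in comparison cells. The 3 intervals in endothelial cells do not overlap one another. Cd34, which encodes a surface sialomucin of endothelial and blood progenitor cells, stood at 389, 314, and 460 CPM and in 50, 40, and 30 cells. Icam2, an adhesion molecule, stood at 301, 218, and 229 CPM. The further genes named by the same rule were S100a16, Ecscr, Gimap6, Lmo2, Gng11, Myct1, Rasip1, Sox17, Gimap4, Cd93, Ctla2a, and Aplnr. The lowest log2 ratio of any of the 15 genes in any library was 3.54, for Aplnr at E11.5. In comparison cells, 14 of these genes were at 5.54 CPM or less in every library, and the exception was Gng11, at 24.3 to 26.4 CPM.

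**Figure D2:**
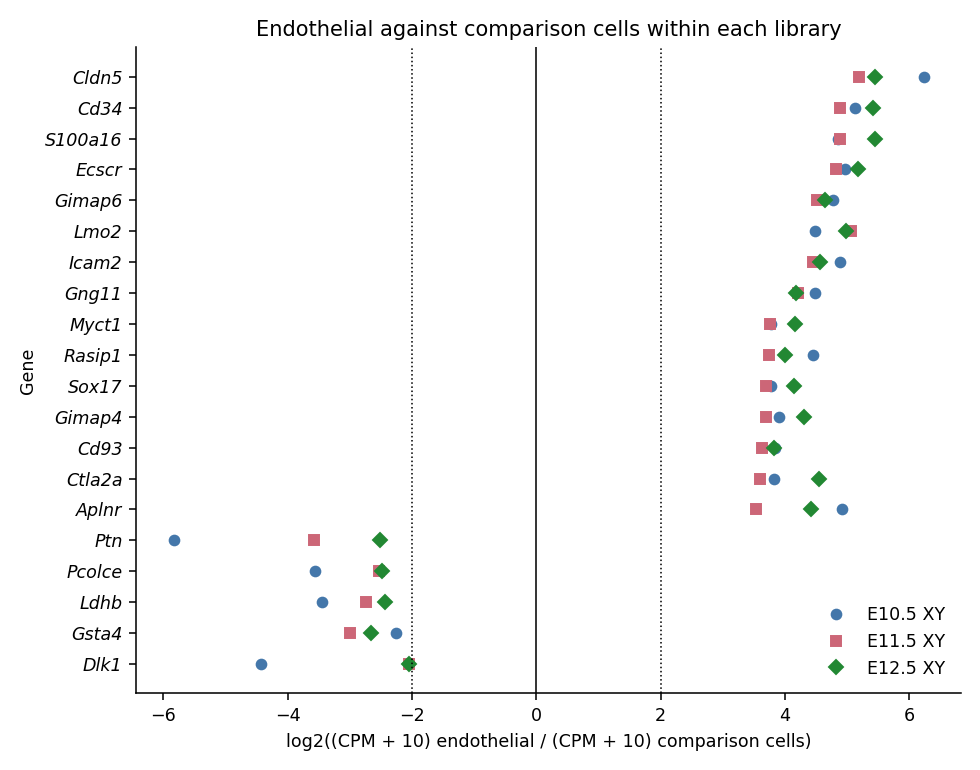
The log2 ratio of endothelial to comparison cells (horizontal axis, pseudocount of 10 CPM) for the 15 genes with the largest smallest ratio and the 5 genes with the lowest largest ratio (vertical axis), with 1 point for each library. Dotted lines stand at -2 and 2, and all points of the upper 15 genes lie at 3.54 or more.

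On the lower side were genes of the surrounding tissue. Ptn, which encodes the growth factor pleiotrophin, stood at 0, 6.06, and 27.0 CPM in endothelial cells against 559, 182, and 201 CPM in comparison cells. At E10.5 its count was 0, which allows up to 5.28 CPM, so the level was at least 106-fold lower. Ldhb, a subunit of lactate dehydrogenase, stood at 24.6, 164, and 150 CPM against 369, 1143, and 850 CPM. Pcolce, Gsta4, and Dlk1 were the others, with log2 ratios between -4.42 and -2.04.

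A list of 30 other endothelial genes, drawn up like all lists here with earlier results of these data known, is given as description. It summed to 5311, 3344, and 4487 CPM in members and 71.6, 177, and 157 CPM in comparison cells. Its genes thus passed the limit on low values mostly through the members, which favors a call of higher. The counts below are therefore no test of the label. At E10.5, 21 genes of the list passed the limit on low values and all 21 were higher by the ratio above. The same was true of 20 of 21 genes at E11.5 and 21 of 24 at E12.5, and none was lower. Their median log2 ratio, over all 30 genes, was 3.15, 2.46, and 2.90, against -0.02, -0.01, and -0.09 for all genes compared. Tie1, an orphan receptor that partners with Tek, stood at 102, 58.2, and 71.3 CPM, and Tek, the angiopoietin receptor, at 40.5, 53.4, and 69.3 CPM. Vwf, the clotting factor of mature endothelium, was low, with 21.1 CPM in 7 cells at E10.5, no UMI at E11.5, and 15.4 CPM in 2 cells at E12.5.

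Many markers of other cell types were at or near 0 in the members. Of 9 macrophage genes, C1qa, C1qb, C1qc, Csf1r, Tyrobp, and Cx3cr1 had no UMI in any member, and the whole list summed to 12.3, 7.28, and 38.5 CPM, against 6.18, 65.4, and 27.3 CPM in comparison cells. Fcer1g was its most abundant gene at E10.5 and E12.5 and Mrc1 at E11.5. Of 8 pericyte genes, Pdgfrb, Kcnj8, and Cspg4 had no UMI, and the sum was 17.6, 27.9, and 0 CPM. The 6 germ cell genes summed to 0, 12.1, and 7.70 CPM, against 15.3, 480, and 1659 CPM in comparison cells. The 6 supporting cell genes summed to 21.1, 44.9, and 17.3 CPM against 62.6, 833, and 1341 CPM. The 6 mesenchyme genes, led by Dlk1, summed to 37.0, 66.7, and 80.9 CPM against 1190, 580, and 669 CPM. Epithelial genes summed to 15.8 CPM or less and neural genes to 3.64 CPM or less. Ptprc, the pan-leukocyte gene, was not detected in the 138 cells, which allows a share of cells with a UMI of up to 2.17%.

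Transcripts of gonadal somatic cells and of red blood cells were also present in members. The 5 gonadal somatic genes, Nr5a1, Wt1, Gata4, Lhx9, and Amhr2, summed to 0 CPM at E10.5, 88.5 CPM at E11.5, and 90.5 CPM at E12.5, against 97.3, 763, and 542 CPM in comparison cells. Nr5a1 had a UMI in 15 of 49 members at E11.5 (30.6%), and in 12.4% of comparison cells there with 2 or more germ cell markers, which should lack it and had a median of 15166 UMIs. Wt1 had a UMI in 24.5% of members and 20.1% of these germ cell-marked cells. At E12.5, Nr5a1 had a UMI in 15.2% of members and 4% of comparison cells with germ cell markers, and Wt1 in 33.3% and 6.93%, with median depths of 14273 and 18521 UMIs. The 9 red cell genes summed to 93.3, 92.2, and 1032 CPM, against 15472, 11333, and 585 CPM in comparison cells, and 1 cell held most of these UMIs at E12.5. Hbb-y, an embryonic globin gene, had a UMI in 20, 29, and 17 members. Its share was 59.2% at E11.5, against 53.8% of comparison cells with 2 or more gonadal somatic markers and 62.7% of those with germ cell markers, with median depths of 17817, 12308, and 15166 UMIs. At E12.5 it was 51.5% of members, against 39.5% and 52.5% of such cells, with median depths of 14273, 10339, and 18521 UMIs. Alas2, which encodes the heme synthesis enzyme of red cells, had no UMI in members of any stage. Removing members with 2 or more markers of the red cell, macrophage, germ cell, or supporting cell lists left 49, 29, and 25 cells.

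A pair of members at E12.5 stood apart in their blood cell transcripts. The 5 megakaryocyte genes, led by Pf4 at E12.5, summed to 12.3, 70.3, and 2295 CPM in members and to 9.68, 5.90, and 2.12 CPM in comparison cells. One E12.5 member held 1170 UMIs of these genes and had 4 of the 7 endothelial markers. The other had 7 markers and 499 globin UMIs. These cells set several of the stage ratios given below. Y-linked genes were used to look at the sex labels, because a protocol label calls the gonads female. Ddx3y, Uty, Kdm5d, or Eif2s3y had a UMI in 40 of 56, 39 of 49, and 28 of 33 members, and Xist in 0, 1, and 0.

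Several transcription factor genes stood apart at E11.5. Of 28 factors on the list, 21, 18, and 20 passed the limit on low values. Of these, 10, 9, and 14 were higher in endothelial cells, with none lower, where 3.04%, 2.40%, and 3.14% of all genes compared were higher. The median log2 ratio over all 28 was 1.76, 1.66, and 2.15, against -0.02, -0.01, and -0.09 for all genes compared. A gene nearly absent from comparison cells passes the limit only through the members, so the counts are no test. Lmo2, a partner of SCL and GATA factors in blood and endothelial precursors, stood at 269, 395, and 376 CPM. Sox17, Sox7, and Sox18, the SOXF factors, stood at 130, 121, and 168 CPM, at 63.4, 81.2, and 82.8 CPM, and at 24.7, 34.0, and 42.4 CPM, and the intervals of the 3 stages overlap for each. Fli1, an ETS factor, was likewise similar, at 102, 124, and 137 CPM.

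Etv2, the ETS factor that starts the endothelial program in mesoderm, was the gene that stood highest at E11.5 relative to both other stages. It was at 17.6 CPM at E10.5 (8.44 to 32.4), 548 CPM at E11.5 (499 to 601), and 36.6 CPM at E12.5 (22 to 57.1). Its gene lies at chr7:30633616-30635852 on the minus strand of GRCm38, and no other annotated gene overlapped it. It was found in 6 of 56, 27 of 49, and 5 of 33 members, which is 10.7% (4.03 to 21.9), 55.1% (40.2 to 69.3), and 15.2% (5.11 to 31.9). The E11.5 interval of both measures lies above those of the other stages. Comparison cells held it in 0.295%, 3.49%, and 1.33% of cells. After every member was thinned to 6500 UMIs, which left out 10, 3, and 0 cells, the shares were 8.70%, 56.5%, and 12.1%, and those of comparison cells thinned alike 0.190%, 2.32%, and 0.812%.

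Hhex, a homeobox gene of early endothelial and blood cells, was also highest at E11.5, with a smaller difference, at 141, 261, and 106 CPM. Tal1, which encodes SCL, stood at 40.5, 118, and 59.7 CPM, and Nr2f2, the venous factor, at 44.0, 154, and 94.4 CPM. Nr2f2 was not particular to endothelial cells, since comparison cells had 155, 173, and 190 CPM. Bmp2, C1ql2, Meox2, and Lhfp were the other genes that the rule named as highest at E11.5. Bmp2, a ligand of bone morphogenetic protein receptors, had 3.52, 89.7, and 3.85 CPM. For C1ql2, with 0, 54.6, and 0 CPM, 1 cell held 66.7% of the UMIs.

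Other factors were lowest at E11.5. Klf2, which responds to blood flow, stood at 537 CPM at E10.5 (479 to 601), 84.9 CPM at E11.5 (66.2 to 107), and 300 CPM at E12.5 (255 to 351), and the intervals are apart. In comparison cells it stood at 9.68, 21.9, and 37.5 CPM. Lyl1, a relative of Tal1, had 95.1, 12.1, and 73.2 CPM. Madcam1, Elf1, and Klhl4 were the remaining genes named as lowest at E11.5, with 9.70, 7.28, and 25.5 CPM at that stage.

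**Figure D3:**
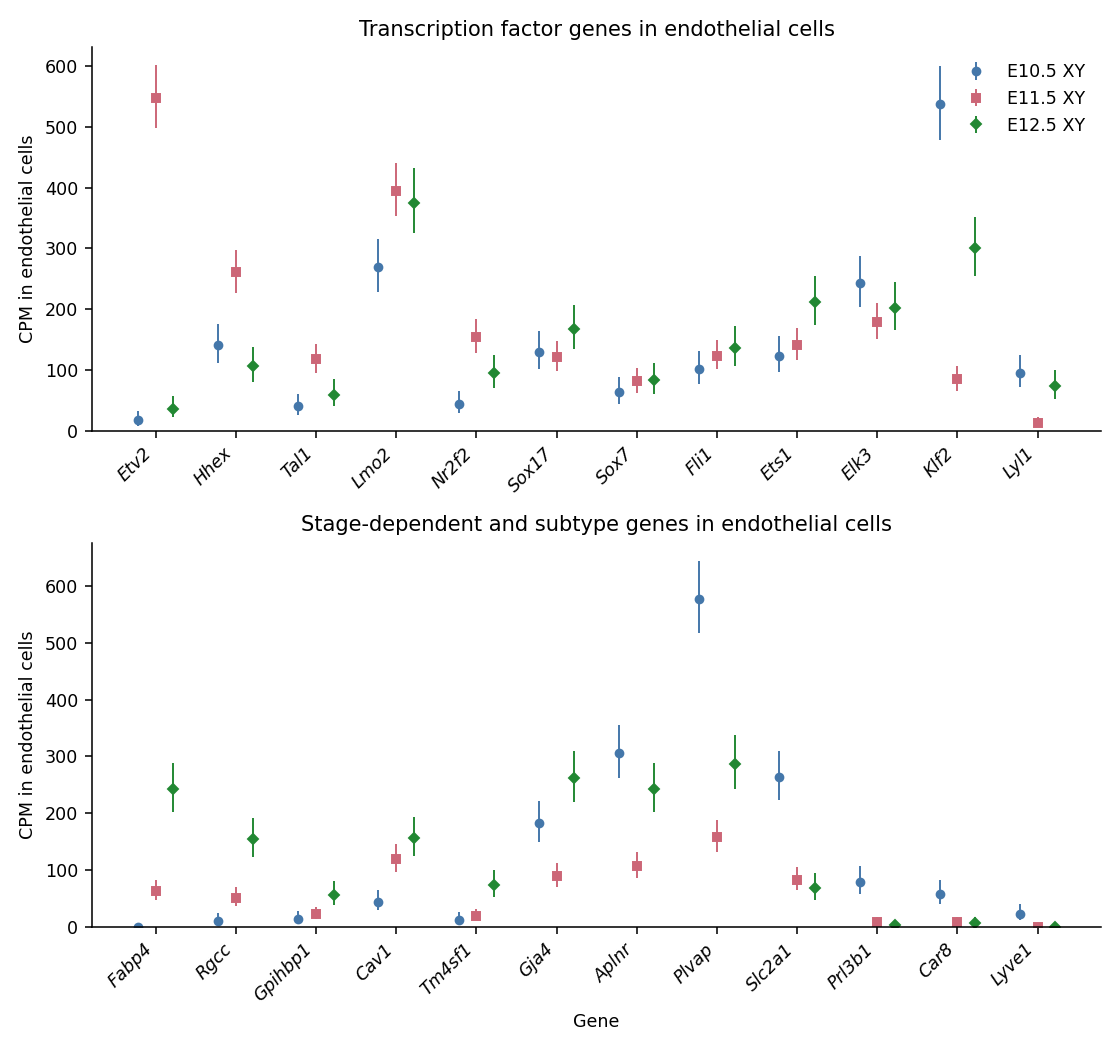
Level in endothelial cells (vertical axes, CPM of summed UMIs) of 12 transcription factor genes (upper panel) and 12 other genes (lower panel) at 3 stages, with 1 point for each library and bars for the exact 95% Poisson interval. Etv2 stands at 548 CPM at E11.5 against 17.6 and 36.6 CPM, and Klf2 at 84.9 CPM against 537 and 300 CPM.

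The E11.5 members were next divided by Etv2, a division chosen after these values had been seen. The 27 Etv2-positive cells had a median of 13 Etv2 UMIs and 22 of them had 3 or more. No cell held more than 9.96% of the 452 Etv2 UMIs. Etv2-positive cells had a median depth of 18840 UMIs and Etv2-negative cells of 13111 UMIs. None of the 49 cells was among the cells with the highest Scrublet doublet scores. Only 1 of the 27 positive cells had all 7 endothelial markers, against 17 of the 22 negative cells.

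The share of Etv2-positive cells was highest at E11.5 among cells with some but not all endothelial markers. It was 9 of 10 cells with 4 markers, 7 of 9 with 5, 10 of 12 with 6, and 1 of 18 with all 7. Below the limit it was 9 of 24 cells with 3 markers and 14 of 167 with 2. Of all 115 retained E11.5 cells with Etv2, 27 were members, 23 had 2 or 3 markers, and 65 had 0 or 1, and members held 46.6% of the Etv2 UMIs. The rule thus took in only some of the cells with this transcript. At E10.5 and E12.5, only 6 and 5 members had Etv2, and no order was read from them.

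**Figure D4:**
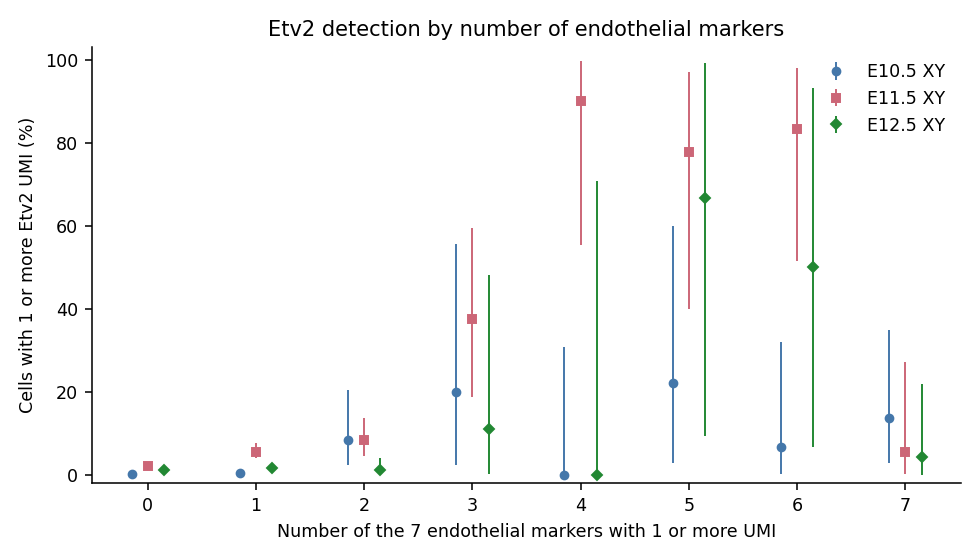
Share of retained cells with 1 or more Etv2 UMI (vertical axis, percent) by number of endothelial markers detected (horizontal axis) in the 3 in vivo libraries, with exact 95% binomial intervals as bars. At E11.5 the share is 77.8% to 90% in cells with 4 to 6 markers and 5.56% in cells with all 7.

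Among the markers themselves, Egfl7 and Kdr were close between both kinds of cell, whereas Pecam1 and Cdh5 were not. Egfl7 stood at 655 CPM in Etv2-positive and 717 CPM in Etv2-negative cells, and Kdr at 247 and 305 CPM. Pecam1 stood at 13.4 and 358 CPM and had a UMI in 5 of 27 and 18 of 22 cells. Cdh5 stood at 40.1 and 381 CPM, in 12 of 27 and 21 of 22 cells. Since cells with 4 to 6 markers must lack some of the 7, lower marker levels in the positive cells follow in part from the rule, but the rule does not say which marker is lacking. With each cell thinned to 6500 UMIs, Pecam1 was found in 11.1% of 27 positive and 84.2% of 19 negative cells, and Kdr in 74.1% and 94.7%.

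Other genes also differed between both kinds of cell. Of 5256 genes compared, 44 were higher in Etv2-positive cells at a log2 ratio of 2 or more (0.837%) and 121 were lower at -2 or less (2.30%). The genes compared include the 7 markers of the rule, 2 of them lower, and Etv2, which was higher because it made the division. Of 23 transcription factors of the list that passed, 2 were higher, Foxc2 and Etv2 itself, and 4 were lower, Klf2, Klf4, Epas1, and Mecom, and the median log2 ratio over the list was -0.40, against 0.03 over all genes. Klf2 was at 28.7 CPM in positive and 182 CPM in negative cells. Among early factors, Lmo2 was at 357 and 461 CPM and Fli1 at 124 and 123 CPM. Hhex was at 357 CPM in positive and 92.9 CPM in negative cells, in 26 of 27 and 11 of 22 cells, and Tal1 at 164 and 36.5 CPM, in 23 of 27 and 5 of 22 cells. Their log2 ratios, 1.84 and 1.91, stayed below the limit. Bmp2 was at 140 and 3.32 CPM and Foxc2, a forkhead factor of mesoderm and vessels, at 65.0 and 3.32 CPM, so that nearly all of their UMIs came from positive cells. Gpr182, a chemokine-scavenging receptor of endothelium, and Batf3, Prrx2, and Fev, which encode transcription factors, were also higher.

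Several genes of caveolae and fenestrae and of tip cells were lower in Etv2-positive cells, as were genes of wider endothelial lists. Of 30 other endothelial genes, 26 passed, 8 were lower, and 0 were higher. That list summed to 1917 and 5822 CPM, with a median log2 ratio of -1.72. Of 17 arterial genes, 11 passed, 6 were lower, and 0 were higher. Of 18 junction and adhesion genes, 8 passed and 1 was lower, where 2.30% of all genes compared were lower. Of 8 genes of caveolae and fenestrae, 7 passed the limit on low values and 4 were lower, and none was higher. Plvap, the protein of fenestral diaphragms, was at 13.4 and 408 CPM, and Cavin3, a coat protein of caveolae, at 5.73 and 451 CPM. Tip cell genes summed to 99.4 and 1184 CPM, and Igfbp3, a binding protein of insulin-like growth factors, was at 1.91 and 381 CPM. Esm1, a gene of tip cells, and Fabp4 had no UMI in the positive cells, in contrast to 159 and 172 CPM in the negative cells.

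The basement membrane list had 6 lower genes of 12 that passed, where 2.30% of all genes compared were lower. Col4a1, a collagen IV chain, was at 72.6 and 521 CPM, and Lama4, a laminin chain of vessels, at 11.47 and 169 CPM, whereas Sparc, a matrix glycoprotein, was at 2182 and 2136 CPM. Gja4, the connexin of arterial cells, was at 11.47 and 222 CPM, and Dll4, an arterial Notch ligand, at 3.82 and 69.7 CPM. Nr2f2 was at 204 and 66.3 CPM, and at 173 CPM in comparison cells. Of 8 venous genes, Nr2f2 among them, 5 passed, 0 were higher, and 1 was lower. The venous list summed to 441 and 435 CPM, with a median log2 ratio of -0.21. The gonadal somatic list summed to 93.6 CPM in positive and 79.6 CPM in negative cells, the mesenchyme list to 84.1 and 36.5 CPM, the pericyte list to 38.2 and 9.95 CPM, and the epithelium list to 22.9 and 3.32 CPM. The part of such transcripts in the differences was not tested.

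**Figure D5:**
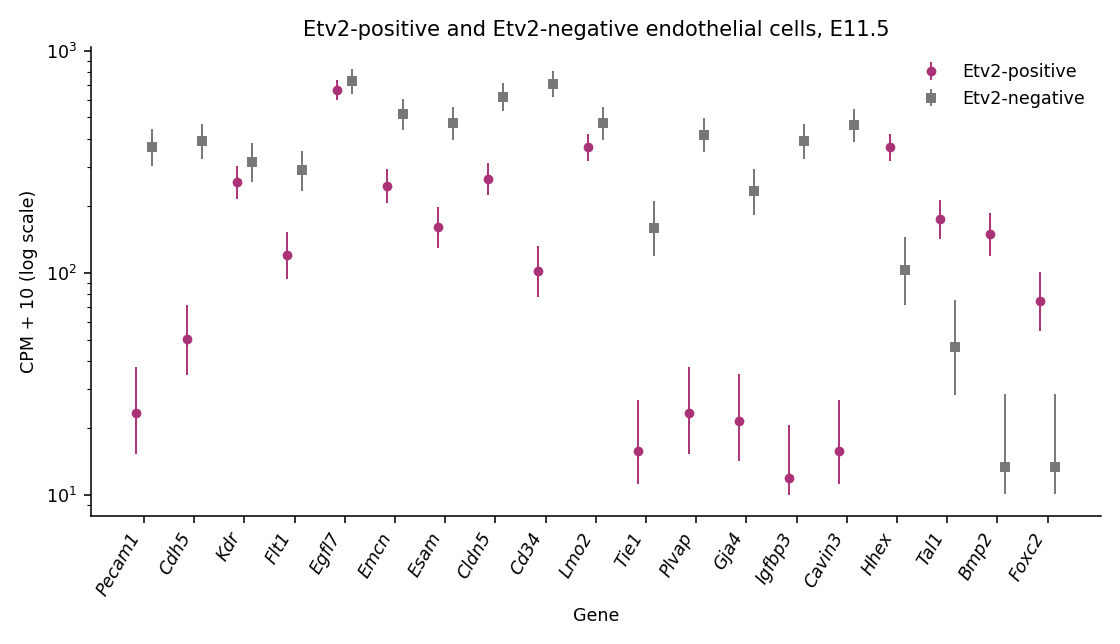
Level (vertical axis, CPM + 10, log scale) of the 7 endothelial markers and 12 other genes (horizontal axis) in 27 Etv2-positive and 22 Etv2-negative endothelial cells of E11.5, with exact 95% Poisson intervals as bars. Egfl7, Kdr, and Lmo2 have similar levels, Pecam1, Tie1, Plvap, and Cavin3 are lower in positive cells, and Bmp2 and Foxc2 are higher. Hhex and Tal1 stay below the log2 limit of 2, at 1.84 and 1.91.

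Genes of the VEGF system differed among themselves. Of 10 genes of its list, Kdr and Flt1 were used by the rule and not counted. Of the others, 5, 4, and 3 passed the limit, and 2, 3, and 1 were higher. The share of higher genes over all genes compared was 3.04%, 2.40%, and 3.14%. Genes nearly absent from comparison cells pass only through the members, so these counts are no test. The higher genes were Flt4 and Vegfc at E10.5, Flt4, Nrp1, and Nrp2 at E11.5, and Nrp1 at E12.5. At E12.5 Flt4 did not pass the limit on low values. Flt4, the receptor of VEGF-C, stood at 56.4, 48.5, and 36.6 CPM against at most 0.255 CPM in comparison cells. Nrp1, a co-receptor, stood at 116, 149, and 129 CPM against 41.9, 12.53, and 7.88 CPM. Vegfa, the ligand of Kdr, had 1.76, 6.06, and 3.85 CPM in endothelial cells and 5.42, 21.8, and 16 CPM in comparison cells. Vegfc, the ligand of Flt4, had 66.9, 19.4, and 30.8 CPM against 7.96, 2.64, and 1.69 CPM, and Vegfb had 31.7, 23.0, and 27.0 CPM against 39.4, 47.5, and 46.7 CPM. Angpt1, the ligand of Tek, had 15.8, 0, and 7.70 CPM.

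Apelin, platelet-derived growth factor, and chemokine genes did not share 1 pattern of ligands and receptors. Aplnr, the apelin receptor, stood at 306, 107, and 243 CPM, with at most 1.79 CPM in comparison cells, and its ligand Apln at 17.6, 9.70, and 1.93 CPM. Pdgfb, the ligand that recruits pericytes, had 17.6, 15.8, and 36.6 CPM against 0.191, 1.44, and 2.41 CPM. Its receptor Pdgfrb had no UMI in endothelial cells and 11, 13.6, and 9.18 CPM in comparison cells. Cxcl12 was lower in endothelial cells, at 5.28, 3.64, and 5.78 CPM against 114, 42.3, and 50.0 CPM, and its receptor Cxcr4 had 1.76, 19.4, and 34.7 CPM.

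Notch genes summed to 444, 337, and 501 CPM in endothelial cells and to 202, 240, and 227 CPM in comparison cells. Hes1, a target of Notch and other signals, was the most counted of them, at 160, 92.2, and 119 CPM against 79.2, 117, and 101 CPM. Of 14 genes, 5, 5, and 7 passed the limit, and 1, 2, and 3 were higher and 0, 0, and 1 lower. Over all genes compared, 3.04%, 2.40%, and 3.14% were higher and 1.88%, 2.18%, and 2.13% lower. Dll4 stood at 31.7, 27.9, and 52.0 CPM, in 13, 12, and 14 cells. Hey1, a Notch target, stood at 56.4, 42.4, and 94.4 CPM against 13.7, 29.1, and 28.2 CPM, and Notch1 at 44.0, 53.3, and 59.7 CPM. The intervals of the 3 stages overlap for Dll4 and Notch1.

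Members with and without Gja4 were compared for other arterial and venous genes, a comparison chosen after values were seen. Gja4 stood at 183, 88.5, and 262 CPM and was found in 13, 18, and 13 members. At E11.5, Etv2 was found in 4 of 18 cells with Gja4 and 23 of 31 without it. The E11.5 comparison by Gja4 therefore overlaps with the division by Etv2. At E12.5, Hey1 was found in 13 of 13 cells with Gja4 and 3 of 20 without it, and Unc5b, a netrin receptor, in 12 of 13 and 0 of 20. At E10.5, Gja5, a second arterial connexin, was found in 7 of 13 and 1 of 43 cells, but at E11.5 only in 1 of 18 and 0 of 31. Sox17 was found in similar shares of cells with and without Gja4, 53.8% and 53.5% at E10.5, 66.7% and 61.3% at E11.5, and 84.6% and 80% at E12.5. Its level was higher in cells with Gja4, at 211 and 106 CPM, 155 and 104 CPM, and 192 and 151 CPM. Nr2f2 was found in fewer of the cells with Gja4, with 1 of 13 and 17 of 43 cells at E10.5 and 4 of 13 and 13 of 20 at E12.5. At E11.5 it was found in 11 of 18 and 23 of 31 cells. Aplnr was at 98.1 CPM in cells with Gja4 and 370 CPM in those without it at E10.5, at 112 and 104 CPM at E11.5, and at 201 and 271 CPM at E12.5. Nrp2 was found in 30.8% of cells with Gja4 and 53.5% without it at E10.5, 38.9% and 64.5% at E11.5, and 23.1% and 75% at E12.5. Ephb4 differed less, at 30.8% and 32.6%, 38.9% and 48.4%, and 23.1% and 35%. Flt4 was found in 38.5% and 37.2% at E10.5, 38.9% and 41.9% at E11.5, and 53.8% and 25% at E12.5.

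For the other lists, counts of higher genes are set against the 3.04%, 2.40%, and 3.14% of all genes that were higher at the 3 stages. Here as for all lists, a gene nearly absent from comparison cells passes the limit on low values only through the members. This favors a call of higher, so the counts are no test. Of the arterial list, 4 of 10, 5 of 7, and 7 of 9 genes that passed were higher, and of the venous list 2 of 5, 3 of 5, and 1 of 3. Of 18 junction and adhesion genes, 4 of 9, 2 of 7, and 4 of 9 were higher, and of 17 guidance genes 3 of 7, 3 of 6, and 4 of 6. Over all 17 guidance genes the median log2 ratio was -0.39, -0.15, and -0.05, against -0.02, -0.01, and -0.09 for all genes compared. Both angiopoietin-list genes that passed, Tie1 and Tek, were higher in every library. The list summed to only 27.2, 7.82, and 6.81 CPM in comparison cells, so both passed mainly through the members. Over all 7 genes of this list the median log2 ratio was 0.09, 0.27, and 0.63. Of the bone morphogenetic protein list, 4 of 14, 3 of 13, and 3 of 13 were higher, and of the transport list 1 of 4, 1 of 6, and 2 of 7. Lower genes were 1, 0, and 0 in the bone morphogenetic protein list and 0, 1, and 1 in the transport list. Over all genes compared, 1.88%, 2.18%, and 2.13% were lower. Tip cell genes were higher in 1 of 4, 3 of 5, and 3 of 7. Genes of caveolae and fenestrae were higher in 5 of 6, 3 of 6, and 4 of 7.

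Of the lymphatic list, 2, 1, and 0 genes passed the limit on low values, and those that passed, Flt4 and Mmrn1 at E10.5 and Flt4 at E11.5, were higher in endothelial cells. Flt4 was nearly absent from comparison cells and passed only through the members, so its call follows from the limit. The median log2 ratio over the 6 lymphatic genes was 1.42, 0.16, and 0.20. The list summed to 146, 74.0, and 63.5 CPM, against 24.5, 26.1, and 30.2 CPM in comparison cells, and Flt4 had a UMI in 21, 20, and 12 members. Lyve1, a hyaluronan receptor of lymphatic and early endothelium, had 22.9 CPM in 7 cells at E10.5 and no UMI later, and Prox1, the lymphatic factor, had 17.6, 2.43, and 3.85 CPM. None of 11 hemogenic genes passed the limit on low values in any library. Runx1, the factor needed for blood formation from endothelium, had a UMI in 4, 1, and 2 members, and Gfi1 in 3 members at E10.5 and none later.

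Between E10.5 and E12.5, 124 of 5393 genes were higher at E12.5 by a log2 ratio of 1 or more (2.30%) and 128 were lower at -1 or less (2.37%). The split of calls depends on the scaling, and with the TMM factor 160 were higher and 109 lower. Few list genes were called by this ratio. None of 27 other endothelial genes and none of 23 transcription factors that passed was higher at E12.5, with 1 and 0 lower. Of the genes of caveolae and fenestrae 2 of 8 were higher, and of the transport list 3 of 6 were higher and 1 was lower. The median log2 ratio was -0.20 for all 30 endothelial genes, 0.37 for all 28 factors, and -0.72 for the 6 lymphatic genes, against -0.07 for all genes compared.

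Fabp4, a fatty acid-binding protein of capillary endothelium, led the genes that were higher at E12.5 once single cells rich in blood transcripts were set aside. It had no UMI at E10.5, 63.0 CPM in 9 cells at E11.5, and 243 CPM in 10 cells at E12.5, where 1 cell held 38.1% of the UMIs. Against the limit of 5.28 CPM that a count of 0 allows at E10.5, the E12.5 level was at least 45.9-fold higher. Comparison cells were at 0.288 CPM or less. At E12.5, 7 of the 13 cells with Gja4 had Fabp4, against 3 of the 20 without it.

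Rgcc, a regulator of the cell cycle that responds to complement, had 10.6, 50.9, and 154 CPM in endothelial cells and 3.09, 75.6, and 33.7 CPM in comparison cells. Cavin2 had 8.80, 4.85, and 84.7 CPM, of which 1 cell held 50.0% at E12.5. Pf4, Ppbp, Thbs1, Gp9, Rgs18, and Plek also led the ratio, but 97.9% to 100% of their UMIs at E12.5 came from 1 cell, and Hba-a1 took 96.3% from 1 cell. Pf4 was the most widely found of them, in 0, 13, and 11 members. Without members that held 10 or more UMIs of the megakaryocyte or of the red cell list, the log2 ratio was 2.17 instead of 7.47 for Pf4, 0.44 instead of 4.45 for Hba-a1, and 1.51 instead of 2.33 for Cavin2. The leading genes were then Fabp4, Rgcc, Emp1, Tm4sf1, Gimap5, Cav1, Fabp5, Pcdh17, Eif4e3, and Gpihbp1. Cav1, the main protein of caveolae, stood at 44.0, 119, and 156 CPM with all members, and Gpihbp1, which holds lipoprotein lipase on capillaries, at 14.1, 21.8, and 55.9 CPM. Fabp5, a second fatty acid-binding protein, stood at 289, 537, and 801 CPM, whereas comparison cells stood at 587, 192, and 254 CPM.

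Genes higher at E10.5 included Slc2a1, the glucose transporter of barrier endothelium, at 264, 82.4, and 67.4 CPM. It was also higher in comparison cells at E10.5, at 61.4, 32.2, and 21.1 CPM. Prl3b1, a gene of the prolactin family, had 79.2 CPM in 17 cells at E10.5, 8.49 CPM in 1 cell at E11.5, and 1.93 CPM in 1 cell at E12.5. Car8, a carbonic anhydrase-related gene, had 58.1, 8.49, and 5.78 CPM, and Adgrg3, an adhesion receptor, had 37.0, 1.21, and 1.93 CPM, with at most 0.828 CPM in comparison cells for both. For Nupr1, 93.3% of the UMIs at E10.5 came from 1 cell, and its log2 ratio was -0.45 instead of -2.65 without the cells of highest doublet score. D030007L05Rik, Atf3, Adgrg1, Ppp2r5a, and Dapk2 completed the 10 genes, with log2 ratios between -2.47 and -1.71.

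Plvap, with a log2 ratio of -0.98, did not reach the limit, but its 3 intervals were apart, at 578 CPM at E10.5 (517 to 644), 158 CPM at E11.5 (132 to 187), and 287 CPM at E12.5 (243 to 337). It was found in 54 of 56, 24 of 49, and 22 of 33 members. The E11.5 value joins unlike cells, with 13.4 CPM in the 27 Etv2-positive and 408 CPM in the 22 Etv2-negative cells. Plvap had a UMI in 5 and 19 of them. Bmp4 stood at 63.4, 0, and 5.78 CPM, close to the 67.8 CPM of comparison cells at E10.5. Basement membrane genes were higher in endothelial cells in 7 of 11 that passed at E10.5, 3 of 12 at E11.5, and 2 of 12 at the last stage. The share of higher genes over all genes compared was 3.04%, 2.40%, and 3.14%. Over these stages Col4a1 in comparison cells stood at 22.4, 55.0, and 107 CPM and in endothelial cells at 199, 236, and 406 CPM.

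Of 15 genes of small GTPase and G protein signaling, 11 passed in each library and 10, 8, and 9 were higher. Over all genes compared, 3.04%, 2.40%, and 3.14% were higher. Median log2 ratios were 2.59, 2.36, and 2.76, against -0.02, -0.01, and -0.09 for all genes. The list summed to 126, 194, and 164 CPM in comparison cells, so its genes passed mostly through the members. It also holds Gng11 and Gimap6, named above by these same ratios, so the counts are no test. Gng11, a G protein subunit, stood at 754, 639, and 647 CPM, and Rasgrp3, an exchange factor, at 79.2, 108, and 158 CPM. Cell cycle genes were not called in either direction between endothelial and comparison cells, with 16, 15, and 15 genes passing and median log2 ratios of -0.34, -0.01, and -0.31.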

How the data were processed

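scRNA-seq was analysed for 3 in vivo libraries. Whole-number UMI counts for each gene and cell were deposited by the authors without normalization, mapped to mm10 with Cell Ranger 3.0.2 per the submitters' processing notes, while the matrix headers name Cell Ranger 6.0.0. The deposited matrices held 40199985, 32519441, and 42242194 UMIs at E10.5, E11.5, and E12.5. Cells were retained with the limits given in the methods, 1000 to 4000 genes and under 10% mitochondrial UMIs at E10.5, 500 to 5000 and 20% at E11.5, and 2000 to 5000 and 8% at E12.5. The members held 567860, 824720, and 519284 UMIs.

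UMIs were summed over cells and scaled to CPM in Python 3.11.15 with numpy 2.4.6, scipy 1.17.1, and pandas 2.3.3. Doublets were left in, and an alternative removed the cells with the highest Scrublet scores in scanpy 1.11.5, at the expected 0.8% per 1000 cells. The calculation of ratios was checked on simulated counts with known changes. Named genes were the 15 with the largest smallest log2 ratio over the libraries and at least 20 UMIs in members of each, the 5 with the lowest largest ratio at 100 CPM or more in comparison cells, 10 for each direction between E12.5 and E10.5, 5 for each direction at E11.5, and members of the lists. A stage gene needed 20 UMIs and 2 times the CPM of comparison cells. The members, the 19 lists, and the rules were chosen with earlier results of these data known. The division by Etv2 and the comparison by Gja4 were chosen after the values were seen.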

Additional observations from a re-analysis of the deposited data

Results flagged for a closer look

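A total of 3 results were set aside for a closer look, and no explanation was tested for any of them. The ratio of endothelial to comparison cells had opposite signs at E10.5 and E12.5 for Foxp1 and Id1, and this difference could not be tested with 1 library per stage. For Foxp1, a forkhead factor gene, the log2 ratio was -1.62, 0.44, and 1.09 at E10.5, E11.5, and E12.5, a difference of 2.71 between the first and last stage. Its level was 38.7, 43.7, and 55.9 CPM in endothelial cells and 140, 29.5, and 20.9 CPM in comparison cells. For Id1, a target of bone morphogenetic protein signaling, the log2 ratio was -1.20, -0.20, and 1.08, a difference of 2.27. Its level was 68.7, 86.1, and 131 CPM in endothelial cells and 170, 101, and 56.9 CPM in comparison cells.

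Endothelial cells were also found in the ESC-derived library at D6, which the comparisons did not use. Of its 2285 retained cells, 15 had 4 or more of the 7 markers, or 0.656% (0.368 to 1.08), and 6 of them had all 7. None of the 15 had an Etv2 UMI, which allows a share of up to 20.0%. This library was enriched for another surface marker, came from an ESC line of another strain background, and was made with version 3 of the kit, so its share was not compared with those in vivo.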

How the results depend on the processing

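Of 124 values recomputed under the alternatives, 112 stayed within their interval or within 1.5 times of the count reported, and 12 did not. The share of endothelial cells was 2.01% at E10.5 with the same filter in every library, 2.19% at E10.5 and 2.20% at E12.5 with every deposited barcode, 3.47% at E11.5 with at least 3 markers, and 1.38% at E11.5 without cells carrying 2 or more markers of another class. With a pseudocount of 1 CPM, the lower genes numbered 199 for E11.5 cells and 184 for E12.5 cells, and 224 were higher and 249 lower between stages. Without the limit on low values, 290 were higher and 240 lower between stages. With at least 3 markers, 56 genes were lower at E12.5. The log2 ratio of E12.5 to E10.5 was reversed for Gp9 (-0.49 with at least 5 markers, -0.49 without cells carrying markers of another class, and -0.61 without cells rich in platelet or globin UMIs), Thbs1 (-0.26, -0.27, and -0.23), Ppbp (-0.27 without cells carrying markers of another class), and Plek (-0.23 without cells rich in platelet or globin UMIs), because 1 cell held most of their UMIs at E12.5. With the same direction or none, the ratio fell below the limit for Hba-a1 (0.36 and 0.44 without cells carrying other markers or rich in platelet or globin UMIs), Rgs18 (0 in 3 settings), Ppbp (0.01 and 0.05), Plek (0 in 2), and Nupr1 (-0.45 without doublets), and it passed the limit for Etv2 (1.12 with at least 3 markers and 1.01 with a pseudocount of 1 CPM). The removal of cells rich in platelet or globin UMIs was added after the data were seen. The share of Etv2-positive cells among E11.5 members was between 46.2% and 56.2% under all 6 alternatives. Stages could not be paired, since each has 1 library and the labels give no replicate numbers. Endothelial and comparison cells are paired by library, and their ratios were taken within each library without a test.

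The values rest on 138 cells of 3 libraries. Spread between embryos was not measured, and stage cannot be told apart from library and dissection. For a gene with no UMI, the limit is 3 counts, or 5.28, 3.64, and 5.78 CPM of members at E10.5, E11.5, and E12.5.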

Other observations

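Some further genes are given for E11.5 members divided by Etv2, a division made after the values were seen, as were these genes. Slc7a5, a transporter of large amino acids, stood at 63.1 CPM in Etv2-positive cells, in 22 of 27 cells, and had no UMI in the 22 Etv2-negative cells. Asns, which encodes asparagine synthetase, stood at 105 and 9.95 CPM. Ccnd2, which encodes cyclin D2, stood at 489 and 69.7 CPM and was found in 27 of 27 and 8 of 22 cells. Of 15 cell cycle genes that passed the limit, 1 was higher and 1 lower, where 0.837% of all genes compared were higher and 2.30% lower. Mki67, a marker of cycling cells, stood at 42.0 and 46.4 CPM, in 8 of 27 and 5 of 22 cells. Pf4, a gene of megakaryocytes, had 97.5 CPM in 12 of 27 Etv2-positive cells and 3.32 CPM in 1 of 22 Etv2-negative cells, and Ppbp, Gp9, and Gp1bb had no UMI in the members of this stage.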
